A study of Mus musculus with 6 samples.

Results

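The S100 genes encode a family of small calcium-binding proteins, and 10 of them were followed here: S100a1, S100a4, S100a6, S100a8, S100a9, S100a10, S100a11, S100a13, S100a14 and S100a16. They were taken by gene symbol from a table of 31053 features and were read in 47002 cells of mouse colon tumours. An S100 protein folds into a pair of EF-hand calcium-binding loops and usually works as a dimer that changes shape and grips a partner protein when calcium rises. S100a8 and S100a9 form calprotectin, which fills the neutrophil cytosol, binds zinc and manganese and, once released, is sensed through Toll-like receptor 4 and the receptor for advanced glycation end products. S100a10 and S100a11 bind annexins at membranes, S100a4 binds non-muscle myosin and is typical of motile cells, and S100a14 and S100a16 are best known from epithelia.

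The tumours were whole colon tumours of male mice, dissociated, cleared of dead cells and run on droplet 3′ single-cell RNA sequencing, with 3 libraries in each of 2 groups. In the Apc ICI group the alleles were VilCreER Apcfl/fl, and tumours were induced from inside the colon by 1 injection of 70 µl of 100 µM 4-OH tamoxifen into its submucosa. In the AOM PN group the alleles were VilcreER P53fl/fl Notch1Tg, and the mice received 2 mg tamoxifen by intraperitoneal injection and, from day 4, 10 mg/kg of the carcinogen azoxymethane (AOM) weekly for 6 weeks. The labels class the first group as intracolonic induction and the second as ageing tumor. Both groups were collected at clinical endpoint and both carry a tamoxifen-dependent Cre driven by the villin promoter, which acts in intestinal epithelium. The 2 groups differ at once in genes, induction and carcinogen, so these cannot be told apart. Ages are not given in the sources used here, and the labels do not say whether the libraries came from separate animals, so every p-value below measures the spread between these libraries.

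After filtering, the Apc ICI libraries held 4801 to 6907 cells and the AOM PN libraries 8226 to 11475, from 59309093 to 98583066 UMIs (unique molecular identifiers, 1 per captured RNA molecule) per library. Haemoglobin took 1.87% to 61.4% of a library's UMIs and was left out of clustering. The 15 pairs of libraries shared 4 to 30 cell barcodes each, at most 0.375% of the smaller library. Cells were named from marker genes that include no S100 gene, which gave 4721 epithelial-like, 16556 neutrophil-like, 8768 monocyte/macrophage-like, 1581 dendritic-like, 5160 T/NK-like, 880 B-like, 4901 erythroid-like and 3817 mast-like cells. Among epithelial-like cells Trp53 was at 1.43, 1.56 and 1.54 UMIs per 10000 in Apc ICI and 0.509, 0.671 and 0.618 in AOM PN, and Apc and Notch1 RNA were both detected in all 6 libraries. A 3′ tag can come from a floxed transcript that lacks only its deleted exons, so these values do not check the recombination.

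All 10 genes lie on mouse chromosome 3, and 8 of them stand within 185 kb (mm10). From one end of that stretch they are S100a1 (chr3:90511034-90514392, minus strand), S100a13 (chr3:90514435-90524581, plus strand), S100a14 (chr3:90526856-90528837), S100a16 (chr3:90537254-90543151), S100a4 (chr3:90603771-90606045), S100a6 (chr3:90612882-90624181), S100a8 (chr3:90668978-90670035) and S100a9 (chr3:90692632-90695721, minus strand). S100a11 (chr3:93520488-93526287) and S100a10 (chr3:93555080-93564643) lie farther along the same chromosome. A processed copy, S100a11-ps, sits on chromosome 12, and its reads could be split from those of S100a11, so S100a11 counts are uncertain to that extent.

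The start regions of S100a8 and S100a9 are shown because these 2 genes had the sharpest restriction to 1 cell class and moved together over every sum of cells. S100a13 is shown because it starts next to S100a1, on the other strand and 42 bases away. Each window is 300 bases, 250 before to 50 after the annotated start, taken from RefSeq on GRCm38.p6, the assembly of mm10, and written 5′ to 3′ on the gene's own strand. Windows matched 8 of the 10 genes, with 9 windows, and S100a10 and S100a14 had none. S100a8 is chr3:90668821-90669120 on the plus strand, S100a9 is chr3:90695672-90695971 on the minus strand, and S100a13 is chr3:90514185-90514484 on the plus strand. Capitals mark matched motif letters in the S100a8 and S100a9 windows, and in the S100a13 window the 204 bases that also belong to the S100a1 window.
S100a8: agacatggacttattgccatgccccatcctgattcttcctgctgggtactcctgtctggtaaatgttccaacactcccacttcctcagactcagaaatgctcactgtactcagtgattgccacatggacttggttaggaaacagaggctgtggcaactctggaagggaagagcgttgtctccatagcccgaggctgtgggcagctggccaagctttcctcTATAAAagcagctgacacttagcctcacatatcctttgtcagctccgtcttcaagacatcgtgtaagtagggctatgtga
S100a9: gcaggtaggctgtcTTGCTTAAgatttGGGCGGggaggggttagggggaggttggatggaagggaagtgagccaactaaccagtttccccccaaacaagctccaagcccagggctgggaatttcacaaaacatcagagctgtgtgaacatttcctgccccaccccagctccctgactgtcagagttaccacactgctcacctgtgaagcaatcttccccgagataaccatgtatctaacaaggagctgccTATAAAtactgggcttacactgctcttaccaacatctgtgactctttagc
S100a13: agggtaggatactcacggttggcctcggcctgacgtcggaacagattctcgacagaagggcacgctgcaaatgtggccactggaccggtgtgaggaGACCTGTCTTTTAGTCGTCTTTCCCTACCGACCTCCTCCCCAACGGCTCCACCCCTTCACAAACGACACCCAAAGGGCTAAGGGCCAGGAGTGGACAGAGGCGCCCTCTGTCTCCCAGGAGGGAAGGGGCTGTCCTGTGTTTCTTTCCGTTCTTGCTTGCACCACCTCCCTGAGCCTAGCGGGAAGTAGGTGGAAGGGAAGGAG
The letters searched on both strands, and the share of all 32817 windows of the same length that hold them, were TTGCNNAA for C/EBP (10.8%), TGANTCA for AP-1 (7.81%), TTCNNNGAA for STAT (8.29%), TATAAA for the TATA box (13.6%) and GGGCGG for the GC box (35.6%). S100a8 held a TATA box beginning 30 bases before its RefSeq start. That start lies inside the S100a8 interval given above, which follows GENCODE, and not at its first base. S100a9 held the C/EBP letters, the GC box letters and TATAAA, the last beginning at the annotated start itself. S100a4 held a TATA box 31 bases before its start, S100a11 held 2 AP-1 and 3 GC box matches, and the windows of S100a1, S100a13 and S100a6 held none of the 5. These are matches of letters and not measured binding.

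Levels are given as UMIs per 10000 UMIs of a cell class in a library, with the range over the 6 libraries. S100a8 stood at 245 to 722 in neutrophil-like cells and at no more than 3.61 in the other 6 classes that were compared, and S100a9 at 343 to 983 against no more than 5.29. Neutrophil-like cells held 98.5% of all S100a8 UMIs and 98.6% of all S100a9 UMIs of the 8 named classes. Together the calprotectin pair took 6.59%, 5.88% and 11.4% of the UMIs of neutrophil-like cells in Apc ICI and 17.1%, 10.6% and 12.5% in AOM PN. In the remaining 6 classes the ranges of S100a8 overlapped from neighbour to neighbour in the order of their medians.

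**Figure D1:**
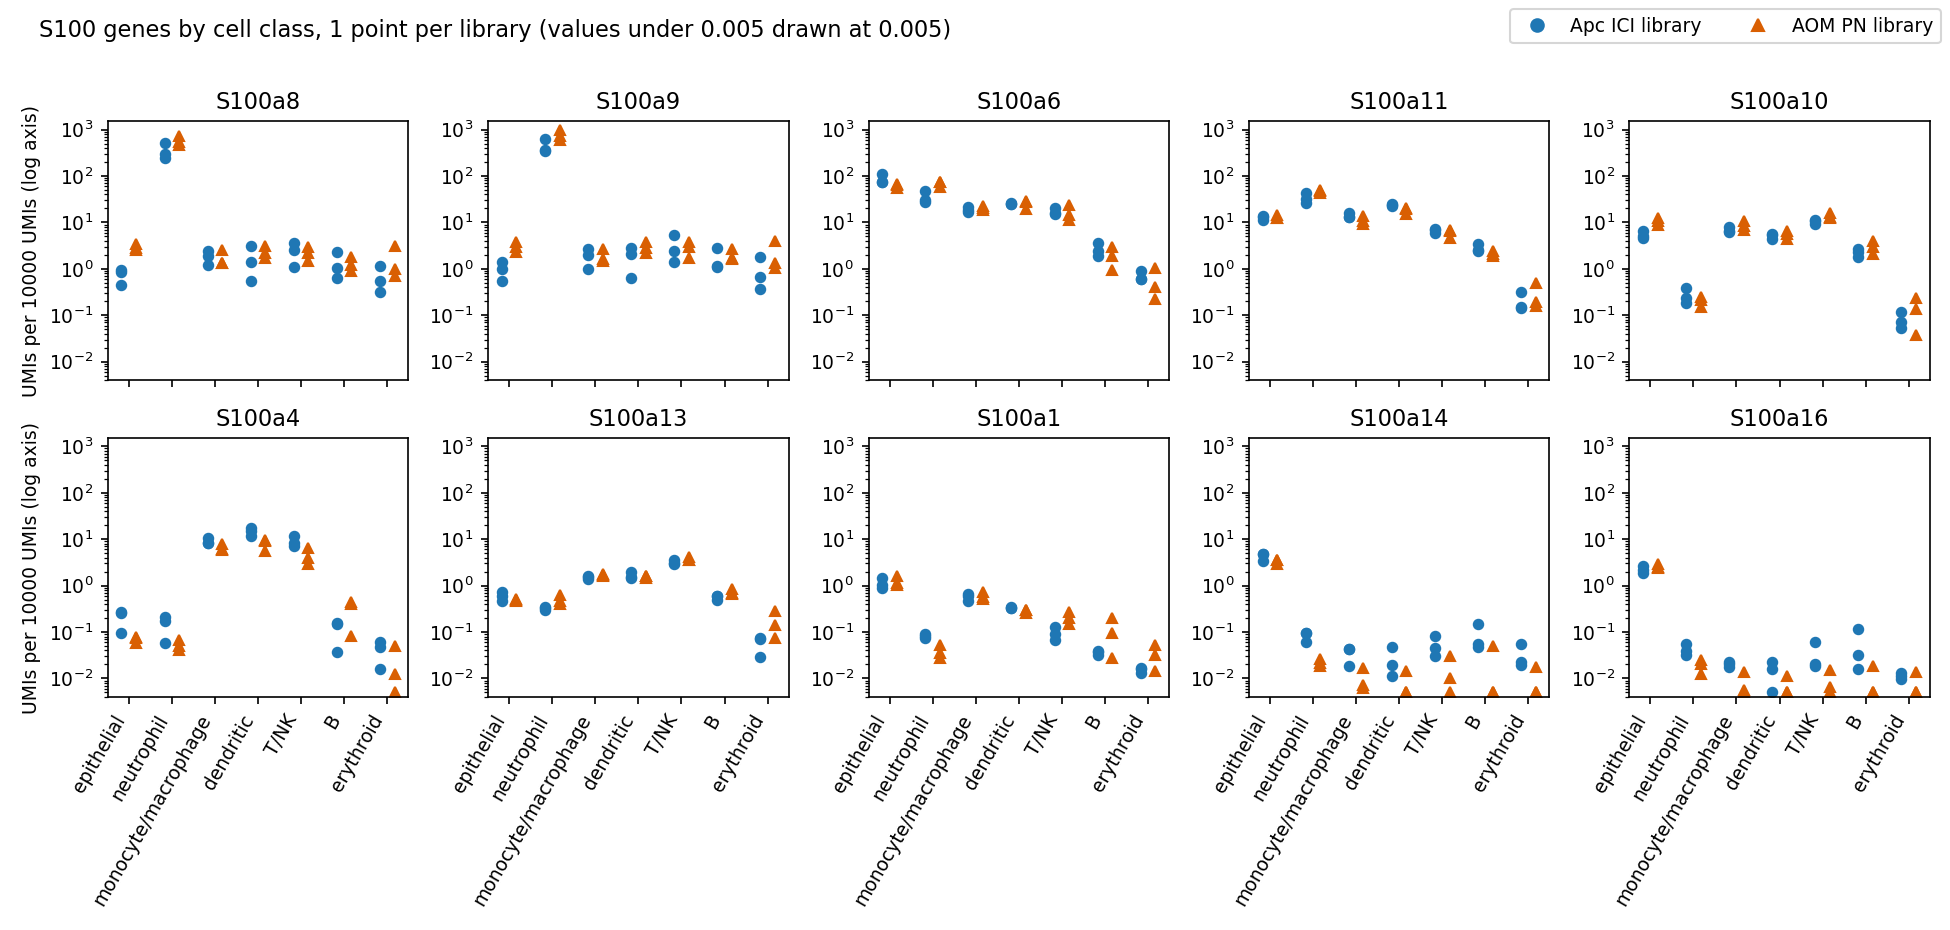
Level of each S100 gene (UMIs per 10000 UMIs, log axis) in each cell class, 1 point per library, coloured by group and with values under 0.005 drawn at 0.005. S100a8 and S100a9 are highest in neutrophil-like cells, S100a14 and S100a16 in epithelial-like cells, and S100a4 in dendritic-, monocyte/macrophage- and T/NK-like cells.

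The epithelial pair was nearly as restricted. S100a14, a family member of surface epithelia, was at 2.90 to 4.82 in epithelial-like cells and at no more than 0.151 elsewhere. S100a16, a widely expressed relative, was at 1.85 to 2.94 in epithelial-like cells and at no more than 0.113 elsewhere. Epithelial-like cells held 97.2% and 97.1% of the UMIs of these 2 genes.

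The annexin-linked members were spread over several classes. S100a6, or calcyclin, was at 55.7 to 110 in epithelial-like cells and at 28.0 to 75.7 in neutrophil-like cells, ranges that overlap, and 41.3% and 32.1% of its UMIs lay in these 2 classes. S100a11, a partner of annexin A1, was highest in neutrophil-like cells at 25.9 to 49.5, just above the 14.9 to 25.3 of dendritic-like cells with no overlap. S100a10, the light chain that binds annexin A2 and with it plasminogen, was highest in T/NK-like cells at 9.43 to 16, overlapping epithelial-like cells at 4.65 to 12.6. In neutrophil-like cells S100a10 was low, at 0.151 to 0.381.

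S100a4 was at 5.59 to 17.3 in dendritic-like, 5.88 to 10.7 in monocyte/macrophage-like and 2.96 to 11.6 in T/NK-like cells, with overlapping ranges, and at no more than 0.442 in the other 4 classes. S100a13, which takes part in the release of proteins that lack a signal peptide, was highest in T/NK-like cells at 2.89 to 4.14 with no overlap with the next class. S100a1, best known from heart muscle, was highest in epithelial-like cells at 0.871 to 1.58. S100a1 and S100a13, whose starts adjoin, thus had different leading classes, and over the 46 library-by-class sums their log2 levels had a Pearson correlation of 0.53.

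Over the same 46 sums, which share libraries and differ in depth, S100a8 and S100a9 had a correlation of 0.997, S100a14 and S100a16 of 0.963, and S100a6 and S100a11 of 0.923. The lowest was S100a9 with S100a10, at -0.396. Among 10747 other genes with enough counts, the pattern most like S100a6 was that of Anxa2 (0.967), the annexin known as the partner of S100a10. Most like S100a8 and S100a9 was Stfa2l1, a stefin A-like gene (0.965 and 0.964), most like S100a14 was Mmp7 (0.979), the Paneth and tumour matrilysin, and most like S100a16 was Esrp1 (0.982), an epithelial splicing factor. The nearest genes were Pmepa1 for S100a10 (0.974), Tes for S100a11 (0.952), Reep5 for S100a13 (0.917), Ramp3 for S100a4 (0.929) and Tmem205 for S100a1 (0.956). These correlations describe the sums and were not tested.

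In epithelial-like cells, S100a8, S100a9 and S100a10 were higher in AOM PN than in Apc ICI tumours and S100a4 was lower. The test was edgeR's quasi-likelihood test on UMI counts summed per library and class, with Benjamini-Hochberg adjustment over all genes of the class. It called 4 of 10 S100 genes at an adjusted p under 0.05, 3 higher and 1 lower, against 39.5% of all 12772 genes tested (20.3% higher, 19.3% lower), so the share called was near the background of this comparison. Over the 10 genes the median log2 difference was 0.25, beside 0.01 over all genes. Scaling by the totals of the class in place of TMM factors (trimmed mean of M-values, which centre most genes) moved the median of all genes from 0.01 to -0.13 and the split of all calls from 2587 higher and 2464 lower to 1993 and 3155, while the same 4 S100 genes were called in the same directions, and S100a6 was called as well. These 4 kept their call and direction without each library in turn.

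S100a8 was at 0.458, 0.953 and 0.840 UMIs per 10000 in the 3 Apc ICI libraries and at 2.75, 2.50 and 3.40 in the 3 AOM PN libraries. Each AOM PN value was above each Apc ICI value, with a log2 difference of 2.07 (SE 0.26, n = 3 and 3, edgeR adjusted p = 0.000302). S100a9 was at 0.555, 1.39 and 0.969 against 2.97, 2.34 and 3.77, again with no overlap (log2 difference 1.77, SE 0.31, edgeR adjusted p = 0.00184). S100a10 was at 4.65, 6.40 and 5.02 against 12.6, 10.5 and 8.74 (log2 difference 1.13, SE 0.21, edgeR adjusted p = 0.00228). All 3 AOM PN libraries lay above all 3 Apc ICI libraries for S100a10 as well. Each cell was also thinned to 1500 UMIs, with shallower cells left out. The differences were then 1.38 and 1.15 for S100a8 and S100a9 (edgeR adjusted p = 0.000322 and 0.00477). That of S100a10 was 0.71, no longer called (edgeR adjusted p = 0.0653).

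**Figure D2:**
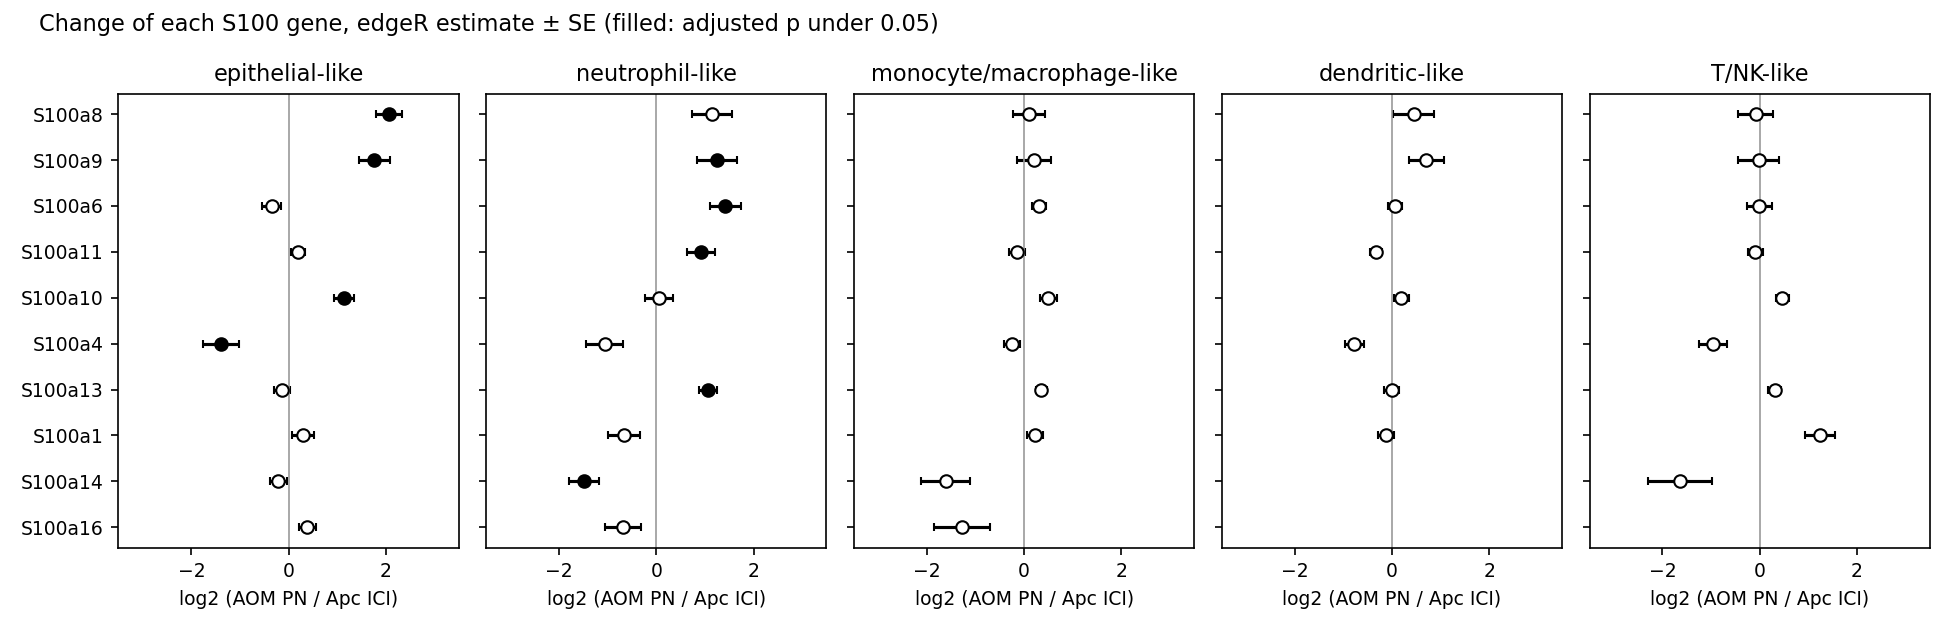
Log2 difference of each S100 gene, AOM PN minus Apc ICI, in 5 cell classes, with bars of 1 SE from the edgeR fit. In epithelial-like cells S100a8 (2.07), S100a9 (1.77) and S100a10 (1.13) lie to the right of 0 and S100a4 (-1.39) to the left, and filled points mark an edgeR adjusted p under 0.05.

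The calprotectin signal in epithelial-like cells was small beside that of the neutrophils of the same tumour, and neutrophil RNA moved with part of it. S100a8 in epithelial-like cells was 0.151%, 0.389% and 0.162% of its level in neutrophil-like cells of the same library in Apc ICI, and 0.381%, 0.530% and 0.627% in AOM PN. The summed level of 10 other neutrophil markers, none of them at 0, was 0.260%, 0.483% and 0.209% of the neutrophil level in Apc ICI and 0.256%, 0.440% and 0.346% in AOM PN. The marker percentages overlapped between groups, whereas those of S100a8 overlapped only through Apc ICI 2 and AOM PN 1. S100a9 was at 0.156%, 0.405% and 0.156% in Apc ICI and 0.302%, 0.399% and 0.531% in AOM PN, where Apc ICI 2 lay above AOM PN 1 and AOM PN 2. Per 10000 UMIs these markers stood at 0.408, 0.915 and 0.431 in Apc ICI epithelial-like cells and 1.00, 1.19 and 1.07 in AOM PN, with no overlap.

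Depth moved with the group too. Epithelial-like cells carried on average 15929, 17902 and 10600 UMIs in Apc ICI and 7557, 5745 and 5229 in AOM PN. Per cell, S100a8 was at 0.729, 1.71 and 0.890 UMIs in Apc ICI and 2.08, 1.43 and 1.78 in AOM PN, and these ranges overlapped. Erythroid-like cells, which do not make calprotectin, held 0.445, 1.21 and 0.660 S100a8 UMIs per cell in Apc ICI and 2.13, 1.12 and 1.00 in AOM PN.

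The S100a9 to S100a8 ratio of epithelial-like cells was 1.21, 1.46 and 1.15 in Apc ICI, beside 1.17, 1.40 and 1.20 in the neutrophil-like cells of the same libraries. In AOM PN it was 1.08, 0.937 and 1.11, below the 1.36, 1.25 and 1.31 of their own neutrophil-like cells in each library. The AOM PN 2 ratio depends on few cells: 40 cells of 1 sub-cluster (e14, below) held 47.1% of its S100a8 and 7.90% of its S100a9 UMIs. A single cell there held 354 of the 959 S100a8 UMIs. A few cells held much of the signal: the top 1% of epithelial-like cells carried 7.57%, 30.9% and 23.8% of S100a8 UMIs in Apc ICI and 34.8%, 56.0% and 57.9% in AOM PN.

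Among epithelial-like cells without a single UMI of a neutrophil marker, a selection added after the data were seen, S100a8 was at 0.546, 1.08 and 0.796 per 10000 in Apc ICI and 2.38, 1.68 and 2.02 in AOM PN. The groups did not overlap there and the log2 difference was 1.41 (edgeR adjusted p = 0.000877). Counted per cell, the same selection gave 0.564, 0.829 and 0.620 UMIs in Apc ICI and 0.667, 0.469 and 0.562 in AOM PN, which overlapped. S100a9 in these cells was at 0.634, 1.49 and 0.947 per 10000 in Apc ICI and 3.04, 2.19 and 2.07 in AOM PN, above S100a8 in every library. The part of free neutrophil RNA in the S100a8 and S100a9 differences was not tested beyond these values.

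**Figure D3:**
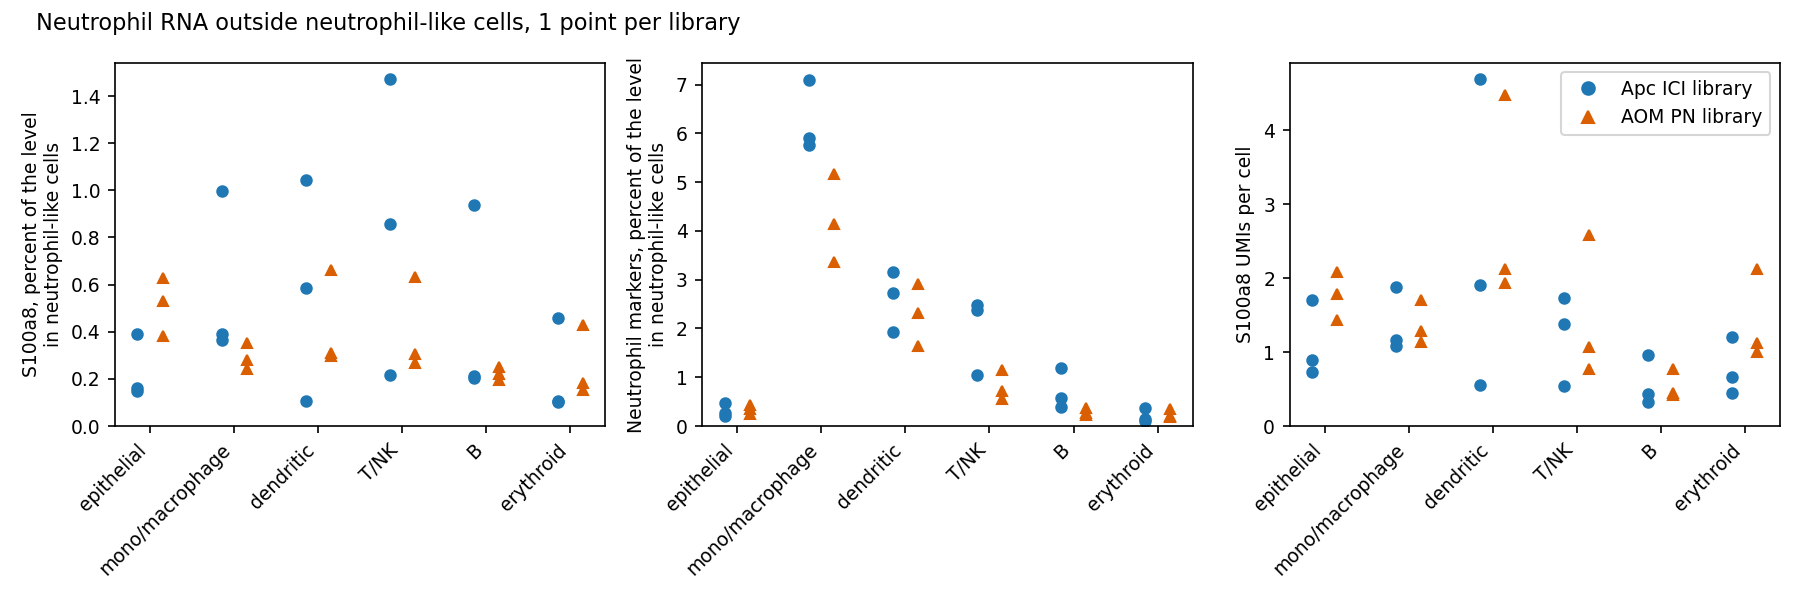
Neutrophil RNA in the 6 other classes, 1 point per library: S100a8 (left) and the 10 neutrophil markers summed (middle) as a percent of their level in neutrophil-like cells of the same library, and S100a8 UMIs per cell (right). In epithelial-like cells the S100a8 points lie between 0.151% and 0.389% in Apc ICI and between 0.381% and 0.627% in AOM PN, while the marker points of the 2 groups overlap.

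Shares of epithelial-like cells with at least 1 UMI were compared after thinning each cell to 1500 UMIs, with shallower cells left out. This kept 429 of 580, 813 of 1024 and 528 of 745 cells in Apc ICI. In AOM PN it kept 589 of 1171, 357 of 669 and 269 of 532, so the groups also differ in how their cells were selected. For S100a8 the share was 11.2%, 16.2% and 14.8% in Apc ICI and 30.4%, 21.6% and 23.4% in AOM PN, which did not overlap (two-sided exact permutation p = 0.1, the smallest that 3 against 3 can give). Erythroid-like cells treated the same way had 5.32%, 10.1% and 7.51% in Apc ICI and 34.6%, 7.82% and 10.7% in AOM PN, so the epithelial share of AOM PN 1 was below its own erythroid background. Median depths of the cells thinned were 2834 to 16654 UMIs in epithelial-like and 6686 to 15264 in erythroid-like cells. Without thinning the order turned, with a mean S100a8 share of 52.0% in Apc ICI and 39.2% in AOM PN. Over all 70 such comparisons of gene and class, 22 reached that smallest p and the lowest Benjamini-Hochberg adjusted value was 0.318.

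S100a4 in epithelial-like cells was at 0.262, 0.266 and 0.0937 UMIs per 10000 in Apc ICI and 0.0746, 0.0781 and 0.0575 in AOM PN. The groups did not overlap, at a log2 difference of -1.39 (SE 0.37, edgeR adjusted p = 0.0153), and the values rest on 242, 488 and 74 UMIs against 66, 30 and 16. Markers of the 3 classes with high S100a4 were also read in these cells. Summed monocyte/macrophage markers (12 genes, 0 or 1 at 0 in a library) were at 1.23, 1.21 and 0.726 per 10000 in Apc ICI and 1.35, 0.929 and 1.42 in AOM PN, which overlapped. Dendritic markers (11 genes, 2 to 5 at 0) were at 1.56, 1.37 and 0.723 against 3.63, 1.39 and 1.82, which overlapped too. T/NK markers (12 genes, 0 to 4 at 0) were at 0.162, 0.220 and 0.143 against 1.88, 1.59 and 1.39, higher in AOM PN with no overlap. Among the Apc ICI libraries the third was the lowest for all 3 marker lists and for S100a4. The part of RNA from these classes in the S100a4 difference was not tested. With sub-clusters that mixed epithelial and other markers kept in, an alternative added after seeing the data, the difference was -0.91 (edgeR adjusted p = 0.0556), and after thinning S100a4 had too few UMIs to be tested.

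S100a6, the most abundant member in epithelial-like cells, was at 110, 75.8 and 75.8 UMIs per 10000 in Apc ICI and 63.2, 55.7 and 66.7 in AOM PN. Its groups did not overlap, but the log2 difference of -0.35 (SE 0.19) gave an edgeR adjusted p of 0.175. Scaled by class totals the difference was -0.50 with an edgeR adjusted p of 0.0405, and among cells without a neutrophil marker it was -0.69 (edgeR adjusted p = 0.0141). The other 5 members were not called: S100a16 had a log2 difference of 0.38, S100a1 of 0.30, S100a11 of 0.20, S100a13 of -0.13 and S100a14 of -0.21.

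Epithelial-like cells fell into sub-clusters of which most came mainly from 1 group, so the class comparison also compares sub-clusters. Mainly Apc ICI were e2, e3, e4, e7, e8, e9, e11, e12 and e17, and mainly AOM PN were e0, e1, e5, e6, e10 and e14. Of the 7 sub-clusters with at least 20 cells of each group, S100a10, pooled over libraries, was higher in AOM PN in 3 and lower in 4. It was at 10.7 per 10000 in Apc ICI and 14.3 in AOM PN in e1 (led by Pyy and Reg3b), at 12.9 and 13.6 in e6 (Gpx2, Wfdc18), and at 14.4 and 18.1 in e9 (Cald1, Krt17). In e0, whose leading gene is Gm26917, S100a10 was at 1.62 and 1.20. In 3 mainly Apc ICI sub-clusters it was also lower in AOM PN, at 5.35 and 3.57 in e3, 5.07 and 2.45 in e4 and 1.57 and 0.513 in e2, where the AOM PN values rest on 226, 7 and 4 UMIs in 34, 26 and 34 cells.

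Among sub-clusters with at least 20 cells of a group, S100a6, S100a11 and S100a14 were all highest in e17, with 41 Apc ICI cells, and low in e0. S100a1, S100a6 and S100a14 are among the leading genes of e17, so their levels there are no independent result. Pooled S100a6 was at 264 in e17 and lowest in the AOM PN cells of e0, at 15. S100a14 was at 16.5 in e17, at 12.6 in Apc ICI and 10.7 in AOM PN in e9, at 4.84 and 3.52 in e1, and at 0.540 and 0.678 in e0. S100a11 was at 34.98 in e17, 24.6 and 30.03 in e9, 25.4 and 20.4 in e1, and 4.59 and 2.55 in e0. S100a10 was at 9.40 in e17, below its levels in e1, e6 and e9.

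S100a8 was at 1.92 and 2.19 in e1, 2.72 and 2.20 in e6, and 2.97 and 2.50 in e0 for Apc ICI and AOM PN. The Apc ICI value of e6 rests on 15, 300 and 7 UMIs in its libraries, and that of e0 on 2, 5 and 4. In e3 pooled S100a8 per 10000 was higher in AOM PN, on 56, 0 and 23 UMIs in the AOM PN libraries. It was lower in AOM PN in e2 and e4, on 5, 0 and 4 and on 4, 1 and 1 UMIs. Among sub-clusters with at least 20 cells of a group S100a8 was highest in e14, with 100 AOM PN cells and 10 Apc ICI cells, led by Saa1, Lypd8 and Clca4b, genes of surface colonocytes. Its AOM PN cells had S100a8 at 19.5 per 10000 and S100a9 at 9.16. Of the 665 S100a8 UMIs there, 80.9% lay in 5 cells and 354 in a single cell. In e10 the AOM PN cells had S100a8 at 8.31, of which 442 UMIs came from AOM PN 3, 46.7% of that library's epithelial-like S100a8 UMIs, and 97.3% of the 442 lay in 3 of 22 cells. The 10 AOM PN cells of e11 had S100a8 at 23.9, with 37 of their 39 UMIs in a single cell. Without e14, also an added alternative, the class difference of S100a8 was 1.81 (edgeR adjusted p = 0.00287).

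**Figure D4:**
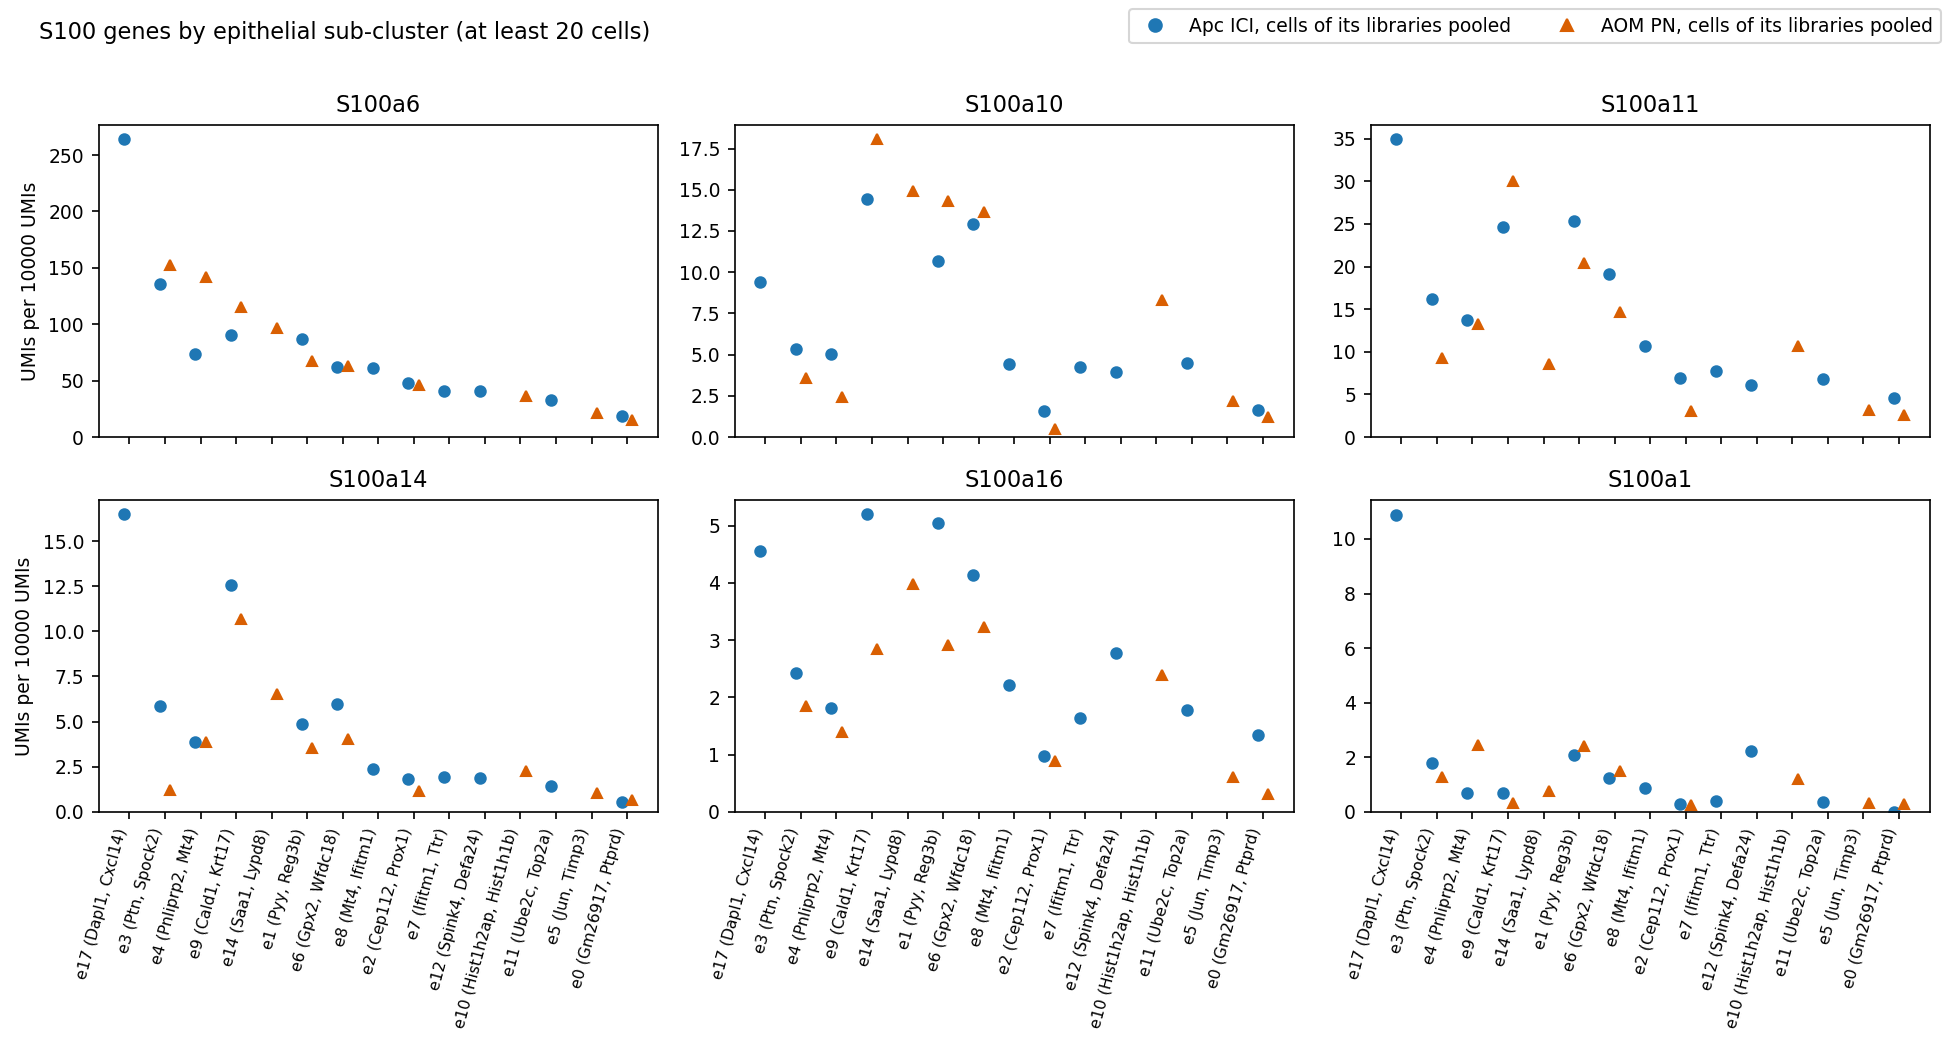
Level of 6 S100 genes (UMIs per 10000 UMIs) in each epithelial sub-cluster, cells of a group's libraries pooled, for groups with at least 20 cells there. S100a6 runs from 264 in e17 down to 15 in e0, and S100a10 is at 10.7 and 14.3 in e1 and at 12.9 and 13.6 in e6 for Apc ICI and AOM PN.

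In neutrophil-like cells, S100a6, S100a9, S100a11 and S100a13 were higher in AOM PN and S100a14 was lower. The test called 5 of 10 members, 4 higher and 1 lower, against 32.7% of the 9366 genes tested (15.2% higher, 17.5% lower). The median log2 difference was 0.49 over the members and -0.05 over all genes. The choice of scaling matters here. With class totals in place of TMM factors the median of all genes was -0.50. The calls over all genes went from 1427 higher and 1638 lower to 381 and 3038. The cause of this shift was not tested.

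S100a6 was at 28.0, 30.1 and 46.5 UMIs per 10000 in Apc ICI and 75.7, 56.5 and 74.5 in AOM PN. The groups did not overlap and the log2 difference was 1.42 (SE 0.32, edgeR adjusted p = 0.0109). By class totals it was 0.98 (edgeR adjusted p = 0.00887), and without Apc ICI 2 it was 1.30 with an edgeR adjusted p of 0.0541.

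S100a13 was at 0.340, 0.336 and 0.302 in Apc ICI and 0.475, 0.406 and 0.628 in AOM PN, again apart (log2 difference 1.07, SE 0.19, edgeR adjusted p = 0.00446). By class totals its difference was 0.62 (edgeR adjusted p = 0.0425). S100a11 was at 25.9, 31.9 and 42.7 against 48.2, 49.5 and 43.3, where the highest Apc ICI and the lowest AOM PN library nearly met (log2 difference 0.92, SE 0.28, edgeR adjusted p = 0.0356). By class totals S100a11 was not called, at 0.49 with an edgeR adjusted p of 0.0946.

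S100a9 was at 355, 343 and 622 in Apc ICI and 983, 587 and 711 in AOM PN, and S100a8 at 304, 245 and 518 against 722, 471 and 543. Both overlapped through Apc ICI 3, the highest of its group. The log2 difference was 1.24 for S100a9 (SE 0.42, edgeR adjusted p = 0.0469) and 1.15 for S100a8 (SE 0.41, edgeR adjusted p = 0.0588). By class totals the differences were 0.79 and 0.70, neither called (edgeR adjusted p = 0.0504 and 0.0791).

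Without Apc ICI 3 both calprotectin genes were called, at 1.71 and 1.67 for S100a9 and S100a8 (edgeR adjusted p = 0.0200 and 0.0178). S100a9 lost its call when the first or the second library of either group was left out (edgeR adjusted p = 0.139 and 0.155 in Apc ICI, 0.123 and 0.0501 in AOM PN), and S100a11 lost its call without the same 4 libraries (edgeR adjusted p = 0.113, 0.121, 0.0752 and 0.0698). With doublet-scored barcodes kept, S100a9 was at 0.88 and S100a11 at 0.58, and neither was called (edgeR adjusted p = 0.175 and 0.192). S100a13 and S100a14 were called without each of the 6 libraries in turn, though S100a13 was lower in AOM PN within some clusters (below).

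S100a14 in neutrophil-like cells was at 0.0622, 0.0933 and 0.0937 in Apc ICI and 0.0259, 0.0214 and 0.0184 in AOM PN (log2 difference -1.49, SE 0.32, edgeR adjusted p = 0.00886). These levels were 1.32%, 1.94% and 2.73% of the epithelial-like level in Apc ICI and 0.722%, 0.592% and 0.635% in AOM PN. The summed epithelial markers in the same neutrophil-like cells were 1.32%, 2.09% and 1.95% of the epithelial level in Apc ICI and 0.835%, 0.492% and 0.487% in AOM PN. Like S100a14 they were lower in AOM PN with no overlap, but the order of the libraries within each group was not the same. The part of epithelial RNA in this difference was not tested. S100a4 had a log2 difference of -1.07 (edgeR adjusted p = 0.0545), at levels of 0.0404 to 0.206, and by class totals it was called at -1.53, as were S100a1 at -1.13 and S100a16 at -1.15 (edgeR adjusted p = 0.0131, 0.0156 and 0.0291).

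The clusters that made up the neutrophil-like class also differed in number of cells. In AOM PN most cells were in c1 (Retnlg, Hp, with 4484 cells beside 403 in Apc ICI) and c3 (Cxcl3, 2903 beside 444), and in Apc ICI most were in c4 (the interferon-induced Ifit3, 2512 beside 401) and c6 (Psap, Hmox1, 2548 beside 133). S100a8 and S100a9 are among the genes that lead these clusters. In medians over libraries, S100a6 was lower in Apc ICI than in AOM PN in each of the 5 larger clusters: 59.8 and 82.4 in c1, 37.6 and 65.7 in c3, 37.6 and 58.5 in c4, 24.7 and 40.0 in c6, and 20.3 and 33.7 in c7 (Il23a).

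Tested within 1 cluster at a time, an alternative added after seeing the data, S100a6 was higher in c7 (log2 difference 1.15, edgeR adjusted p = 0.00249) where 5.46% of all genes were called. It had log2 differences of 0.91 in c6 and 0.78 in c3 that were not called (edgeR adjusted p = 0.0609 and 0.154). S100a9 rose in c7 by 0.73 (edgeR adjusted p = 0.0445) and S100a1 fell there by 1.51 (edgeR adjusted p = 0.0313). No member was called within c1, c3, c4, c6 or c20, where 0.484%, 0.989%, 0.782%, 2.31% and 4.41% of all genes were. Of the members called higher over the class, S100a13 was lower in AOM PN within c4 and c6, and S100a11 within c4. S100a8 medians within clusters were 681 and 746 in c1, 410 and 535 in c3, 444 and 476 in c4, 208 and 260 in c6, and 165 and 181 in c7 for Apc ICI and AOM PN, and differed more between clusters than between groups.

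**Figure D5:**
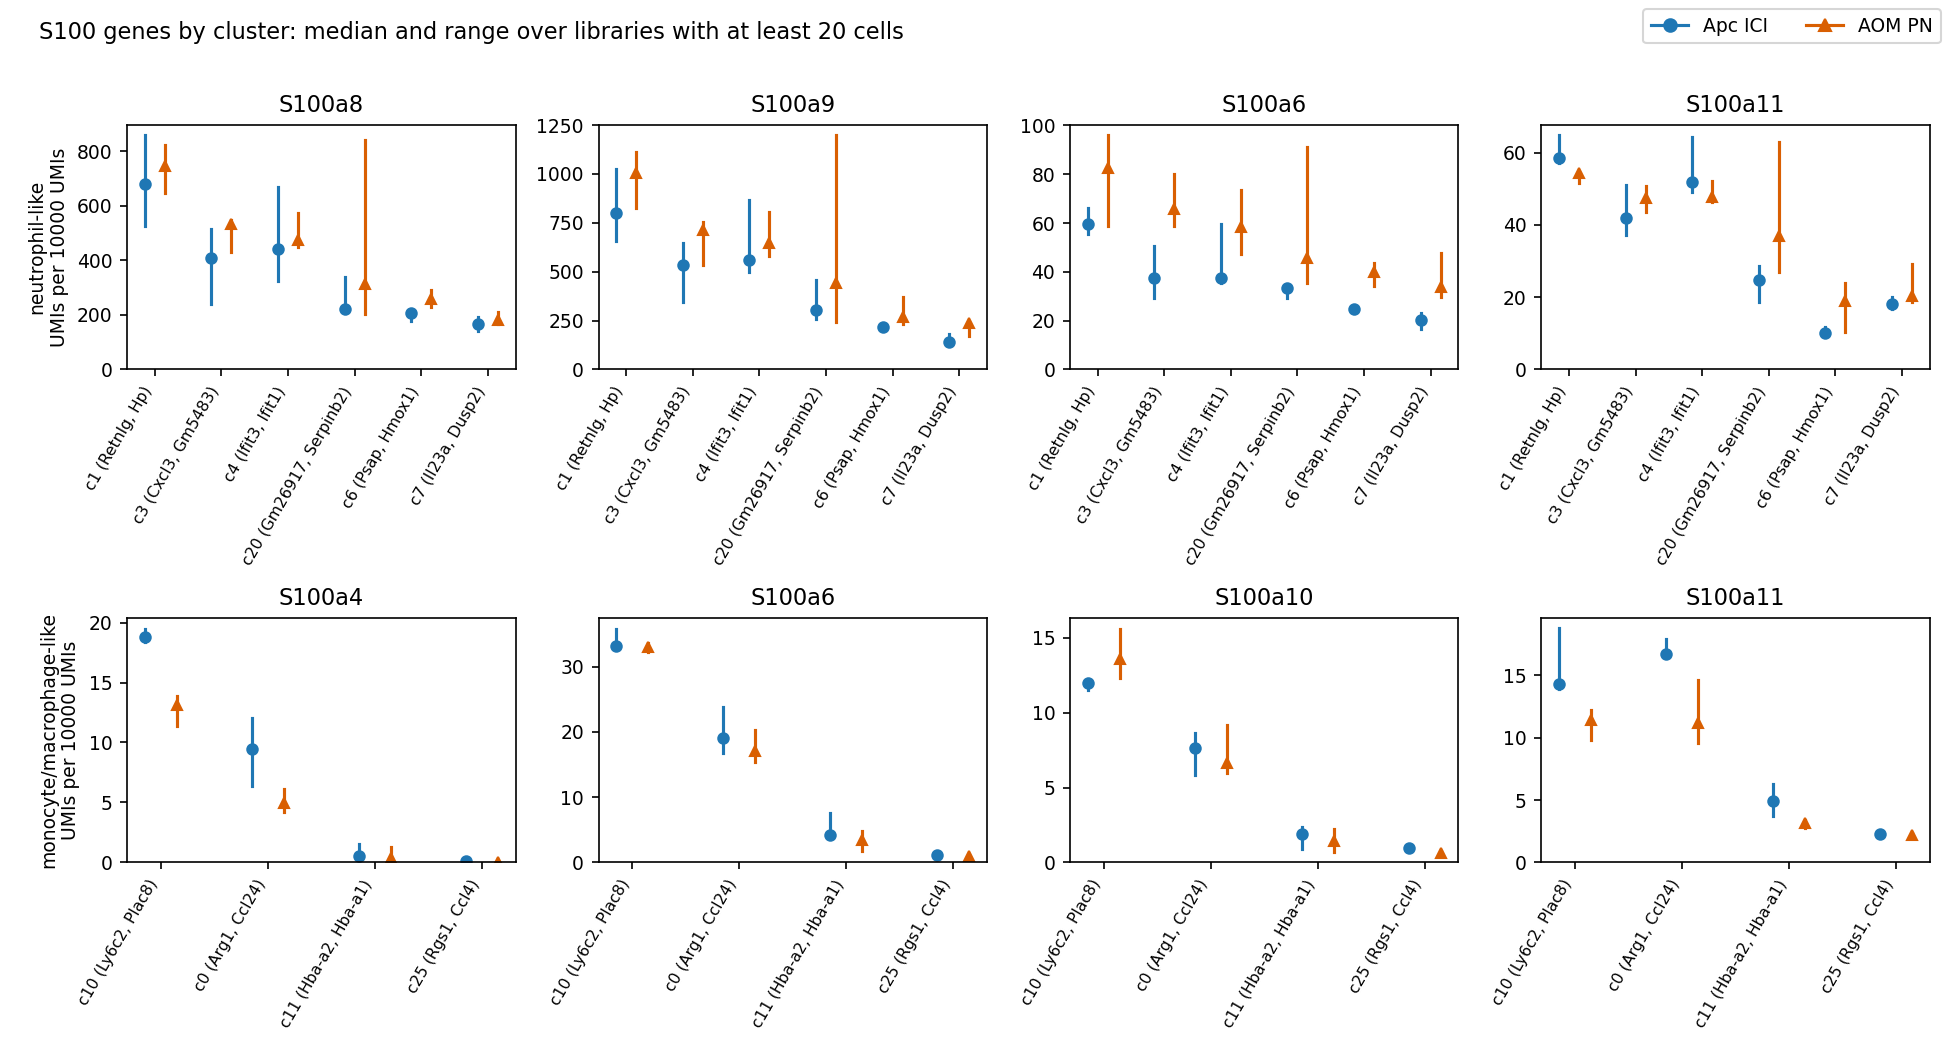
Level of S100 genes (UMIs per 10000 UMIs) in each cluster of neutrophil-like (top) and monocyte/macrophage-like cells (bottom), as the median and range over libraries with at least 20 cells. The S100a6 medians are higher in AOM PN in c1, c3, c4, c6 and c7, and S100a4 falls from c10 (18.8 and 13.1) to c25 (0.140 and 0.0459).

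In monocyte/macrophage-like cells 0 of 10 members were called by edgeR, against 3.33% of 11084 genes, and 3 had an unadjusted p under 0.05. DESeq2 likewise called 0 of them. Without AOM PN 3, S100a10 was called at 0.67 (edgeR adjusted p = 0.0271). S100a4 was at 10.7, 8.09 and 8.29 UMIs per 10000 in Apc ICI and 6.28, 7.99 and 5.88 in AOM PN, so the lowest Apc ICI library stood just above the highest AOM PN library. S100a6 ranged over 16.5 to 22.8, S100a10 over 6.27 to 10.6, S100a11 over 9.33 to 15.7 and S100a13 over 1.41 to 1.81 across all 6 libraries.

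Within this class S100a4 followed the cluster more than the group. It was highest in c10, the Ly6c2 and Plac8 monocyte-like cells that it also helps define, with medians of 18.8 in Apc ICI and 13.1 in AOM PN. In c0, led by Arg1 and Ccl24, it was at 9.45 and 4.91, and in c25, led by Rgs1 and Ccl4, at 0.140 and 0.0459. S100a6 showed the same descent, from 33.2 and 33.1 in c10 through 19.1 and 17.1 in c0 to 1.16 and 1.01 in c25. The 1 member called within a cluster of this class was S100a11 in c11, a haemoglobin-led cluster of low depth, with a log2 difference of -0.71 (edgeR adjusted p = 0.0433) where 1.81% of all genes were called.

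Dendritic-like cells gave 0 of 8 members called, against 1.21% of 8646 genes, with 2 at an unadjusted p under 0.05. S100a4 was at 17.3, 14.7 and 11.6 in Apc ICI and 5.59, 9.18 and 9.47 in AOM PN. The groups did not overlap, yet the log2 difference of -0.77 had an edgeR adjusted p of 0.0952. DESeq2 called this 1 gene, at -0.74 (adjusted p = 0.00715).

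In T/NK-like cells 0 of 9 members were called, against 5.19% of 10477 genes, and 5 had an unadjusted p under 0.05. S100a4 was at 11.6, 8.42 and 7.03 in Apc ICI and 2.96, 3.88 and 6.50 in AOM PN, with no overlap (log2 difference -0.96, edgeR adjusted p = 0.0826). S100a10 had a log2 difference of 0.47 (edgeR adjusted p = 0.0811), and S100a1 was at 0.0907, 0.0659 and 0.127 against 0.270, 0.204 and 0.148 (log2 difference 1.23, edgeR adjusted p = 0.0529). DESeq2 called these 3 members in this class. Without AOM PN 3, edgeR called S100a4 at -1.34 and S100a1 at 1.43 (adjusted p = 0.0132 and 0.0267).

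The make-up of the T/NK-like class differed between groups, so its comparison also compares clusters. Cluster c17, led by Ccl5 and Xcl1, was 8.66% of the class in Apc ICI and 22.7% in AOM PN, c9 23.5% and 42.4%, c13 36.9% and 29.0%, and c19, a cluster of low depth, 31.0% and 5.95%. S100a1 was concentrated in c17 in AOM PN, which held 80.8%, 55.9% and 35.6% of the S100a1 UMIs of the class, at 0.534, 0.403 and 0.519 per 10000. S100a4 was concentrated in c13 in Apc ICI, which held 83.0%, 73.6% and 66.0% of the S100a4 UMIs of the class, against 16.5%, 32.3% and 54.7% in AOM PN. In c17 S100a4 was at 0.360 to 2.21 over the 6 libraries.

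Within clusters of T/NK-like cells, tested as above, some of these differences passed the threshold. In c13, led by Il17a and Trdc, genes of interleukin-17-producing gamma-delta T cells, S100a4 had medians of 14.6 in Apc ICI and 4.03 in AOM PN (log2 difference -1.35, edgeR adjusted p = 0.0264), where 6.30% of all genes were called. In c9, led by Tnfrsf4 and Cd4, S100a10 had medians of 10.0 and 16.6 (log2 difference 0.71, edgeR adjusted p = 0.0266), where 2.65% were called. S100a4 in c9 had a log2 difference of -0.18 (edgeR adjusted p = 0.593). Whether the S100a4 difference itself differs between c13 and c9 was not tested. In c17 S100a1 had a log2 difference of 2.01 that was not called (edgeR adjusted p = 0.0899).

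S100a8 and S100a9 were lower in AOM PN in c17, and a few cells held most of these UMIs in 2 Apc ICI libraries. S100a8 was at 14.97, 6.87 and 1.58 in Apc ICI and 1.83, 1.44 and 0.993 in AOM PN, and S100a9 at 14.3, 10.6 and 1.27 against 2.40, 1.90 and 1.48. Apc ICI 3 thus lay within the AOM PN range for S100a8 and below it for S100a9. In Apc ICI 1 a set of 3 of 44 cells held 96.3% of the S100a8 UMIs of the cluster, and in Apc ICI 2 a set of 3 of 34 cells held 83.8%. With Apc ICI 3 left out of the fit for its 18 cells, the log2 differences were -2.94 and -2.68 (edgeR adjusted p = 0.00245 and 0.00131), where 2.32% of all genes were called. With Apc ICI 3 kept, an alternative added after seeing the data, they were -2.52 and -2.23 (edgeR adjusted p = 0.0363 and 0.0484).

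In c19, led by Ttn and mitochondrial genes, where 40.6% of all genes were called, S100a13 differed by 2.36, S100a10 by 1.92 and S100a4 by 1.15 (edgeR adjusted p = 4.54e-05, 5.44e-05 and 0.0247).

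B-like cells had 0 of 6 members called, against 0.965% of 4973 genes, and none had an unadjusted p under 0.05. Erythroid-like cells had 0 of 9 called, against 4.21% of 1923 genes, and 4 had an unadjusted p under 0.05. DESeq2 called 0 members in B-like and 0 in erythroid-like cells. The members were at low levels in erythroid-like cells, with S100a6 at no more than 1.05 per 10000. Without Apc ICI 1, edgeR called S100a14 in erythroid-like cells at -2.26 (adjusted p = 0.0451).

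The change between groups was then compared between classes with an interaction term in 1 fit, each library as a block. Between epithelial- and neutrophil-like cells 6 members differed, against 22.4% of all genes, and between epithelial- and monocyte/macrophage-like cells 6, against 19.8%. Between epithelial- and T/NK-like cells 4 differed, against 14.4%, and between neutrophil- and monocyte/macrophage-like cells 4, against 16.7%. Of the 4 against T/NK-like cells, S100a16 did not pass the count filter in T/NK-like cells alone. S100a6 and S100a13 in the first of these pairs, and S100a8 and S100a9 in the second and the third, kept their call without each library in turn. S100a6 differed most between epithelial- and neutrophil-like cells, with a change 1.91 lower on the log2 scale in the epithelial-like cells (interaction -1.91, SE 0.35, edgeR adjusted p = 0.000402). The changes of S100a8 and S100a9 were 1.97 and 1.49 larger in epithelial- than in monocyte/macrophage-like cells (edgeR adjusted p = 0.000171 and 0.000928), but between epithelial- and neutrophil-like cells they differed by 0.82 and 0.47, which was not called (edgeR adjusted p = 0.156 and 0.452). On simulated counts the fit of epithelial- against neutrophil-like cells recovered 33% of 2-fold differences.

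Of the other S100 genes on a list of 8, S100a7l2 was not analysed here and 2 were tested in epithelial-like cells. S100g, the intestinal calbindin, had a log2 difference of -3.80 (edgeR adjusted p = 0.00234) and S100a3 of -1.58 (edgeR adjusted p = 0.149). Among 11 S100 receptor and signalling genes, 9 were tested in epithelial-like cells, of which 3 rose and 2 fell, against 39.5% of all genes called in this class (20.3% higher, 19.3% lower). By class totals 2 rose and 3 fell. Tlr4, the calprotectin receptor, rose by 1.99 and its adaptor Myd88 by 1.53, while Ly96, the co-receptor of Tlr4, fell by 0.56 and Nptn, a receptor of S100a8, by 0.42 (edgeR adjusted p = 0.000609, 0.000139, 0.0416 and 0.0177). The median of the 9 was 0.29, beside 0.01 over all genes.

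Annexin and cytoskeletal partners of S100 proteins were tested for all 8 genes. In epithelial-like cells 3 rose and 1 fell, by TMM factors and by class totals alike. Of all genes there, 39.5% were called by TMM factors (20.3% higher, 19.3% lower). Ahnak, a giant scaffold that binds S100a10 with annexin A2, rose by 2.46, Iqgap1 by 0.77 and Myh9, the heavy chain of the myosin that S100a4 binds, by 0.67, while Anxa6 fell by 2.92 (edgeR adjusted p = 2.72e-05, 0.00171, 0.0032 and 0.000103). In neutrophil-like cells 6 of these 8 rose and 1 fell, with a median of 0.83 beside -0.05 over all genes, of which 32.7% were called (15.2% higher, 17.5% lower). By class totals, where 381 of all genes were higher and 3038 lower, 4 of the 8 rose and 1 fell, with a median of 0.37 beside -0.50. Anxa2 rose there by 1.11 and Anxa1 by 1.44, and Cacybp, the calcyclin-binding protein named for S100a6, fell by 0.99 (edgeR adjusted p = 0.0115, 0.0471 and 0.00522).

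Genes of the plasminogen system around the S100a10 and annexin A2 complex moved both ways. In epithelial-like cells 5 of 8 were tested, Plgrkt, a plasminogen receptor, rose by 0.89, Plat, the tissue plasminogen activator, fell by 1.78 (edgeR adjusted p = 0.00023 and 3.43e-05), and Plau and Plaur were at -0.59 and 0.15 (edgeR adjusted p = 0.424 and 0.672). In neutrophil-like cells 6 were tested, 1 rose and 3 fell, against 32.7% of all genes called (15.2% higher, 17.5% lower). The share over all genes in epithelial-like cells was 39.5% (20.3% higher, 19.3% lower).

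Other metal-binding and granule proteins of the neutrophil also moved both ways. Lcn2, the siderophore binder that colon epithelium also makes, fell by 1.94 and Ltf, lactoferrin, by 1.12 in epithelial-like cells (edgeR adjusted p = 0.000954 and 0.0365), the 2 of this 6-gene list that were tested there. In neutrophil-like cells all 6 were tested, Camp, the cathelicidin, rose by 3.22, Chil3, a chitinase-like protein, by 3.77 and Ltf fell by 1.03 (edgeR adjusted p = 0.0283, 0.0252 and 0.0125). Chil3 also rose in monocyte/macrophage-like cells, by 2.09 (edgeR adjusted p = 0.0236). Of all genes, 39.5% were called in epithelial-, 32.7% in neutrophil- and 3.33% in monocyte/macrophage-like cells.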

How the data were processed

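Droplet 3′ libraries were aligned by the authors with Cell Ranger 6.1.2 to mm10, per the submitters' processing notes, and the deposited matrices hold raw UMI counts per gene and barcode. Their intervals and tests cover counting error and the spread between libraries only. From these counts, barcodes under 200 genes or over 20% mitochondrial UMIs were dropped, and 4.00% to 10.2% of barcodes per library were removed as doublets by a simulated-doublet score at 0.8% per 1000 barcodes. Cells were log-normalised without haemoglobin genes and clustered (2000 variable genes, 30 components, 20 neighbours, Leiden resolution 1; scikit-learn 1.9.0, leidenalg 0.10.2), and epithelial cells were clustered again. Classes were named from at least 3 markers with no S100 gene among them. Names therefore come from this clustering and not from the authors. The rules on leading genes and on mixed epithelial sub-clusters (over 50% of another class's markers) were set after the clusters were seen. The members and gene lists were chosen with earlier results of these data known.

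Sums of UMI counts over the cells of a class in a library were tested with edgeR 4.0.16 (TMM, filterByExpr, quasi-likelihood F test, Benjamini-Hochberg over all genes, threshold 0.05), with classes of at least 20 cells in at least 2 libraries of each group. Interaction fits used 2 classes with library as block. The fit was tested on simulated data, with 2-fold changes recovered in 85% of cases in epithelial-like and 81% in neutrophil-like cells. Alternatives were DESeq2 1.42.0, other size factors, no filter, a 10% mitochondrial limit, doublets kept, haemoglobin genes or S100 genes left out, thinning, blocks and each library left out. Each member that the main test called in a class is named there. Outside epithelial- and neutrophil-like cells only some of the members tested are named. Of each list up to 4 genes with the smallest adjusted p in epithelial-like cells are named. Genes of the neutrophil-like and monocyte/macrophage-like tests were added after their values were seen. Gene coordinates are those of GENCODE on mm10.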

Additional observations from a re-analysis of the deposited data

Results flagged for a closer look

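The 20 results below are changes between AOM PN and Apc ICI that differed between 2 cell classes of the same tumours, by an interaction term fitted with edgeR over all genes. Each value is the log2 change in the first class minus that in the second. Between epithelial- and neutrophil-like cells the difference was 0.85 for S100a1, -1.30 for S100a13, 1.14 for S100a14, 0.91 for S100a16, -1.91 for S100a6 and 0.92 for S100a10 (adjusted p from 0.000402 to 0.0428). Between epithelial- and monocyte/macrophage-like cells it was 1.27 for S100a14, 1.58 for S100a16, -1.16 for S100a4, -0.75 for S100a6, 1.97 for S100a8 and 1.49 for S100a9 (adjusted p from 0.000171 to 0.0432). Between epithelial- and T/NK-like cells it was -1.08 for S100a1, 2.25 for S100a16, 2.11 for S100a8 and 1.72 for S100a9 (adjusted p from 0.00137 to 0.0221). Between neutrophil- and monocyte/macrophage-like cells it was 0.69 for S100a13, 1.15 for S100a6, 1.14 for S100a8 and 1.14 for S100a11 (adjusted p from 0.0195 to 0.0368). S100a16 did not pass the count filter in T/NK-like cells alone. Its T/NK-like side rests on 6, 10 and 2 UMIs in Apc ICI and 12, 4 and 2 in AOM PN, so its value of 2.25 is no result about T/NK-like cells.

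Without each library in turn, S100a6 and S100a13 stayed called between epithelial- and neutrophil-like cells, and S100a8 and S100a9 between epithelial-like cells and both monocyte/macrophage- and T/NK-like cells. The other 14 lost their call without at least 1 library. Scaling also moved the interaction calls over all genes. By library totals in place of TMM factors they went from 1713 higher and 1343 lower to 3345 and 639 between epithelial- and neutrophil-like cells. Between neutrophil- and monocyte/macrophage-like cells they went from 717 and 1203 to 272 and 2000. Outside epithelial-like cells S100a14 and S100a16 were at 0.151 UMIs per 10000 or less, and in neutrophil-like cells both they and the summed epithelial markers were lower in AOM PN as a percent of the epithelial level. The part of epithelial RNA in these differences was not tested.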

How the results depend on the processing

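The sums rest on 47 to 3832 cells per class and library, fewest in B-like cells. On simulated counts of this size edgeR recovered 52% to 85% of 2-fold changes, with B-like cells lowest, and smaller changes were not simulated. The interaction of epithelial- and neutrophil-like cells recovered 33%. False calls were 7.5% of the calls in epithelial-like cells. The simulated spread between libraries was 1 fixed value for all genes and only genes above a minimum level were changed, so recovery for a more variable or a rarer gene was not measured. The library-total scaling, the mixed sub-clusters, the 2 epithelial subsets, the single clusters and a small library kept in c17 were alternatives chosen after seeing the data.

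Of the 10 genes, 2 rather than 4 were called in epithelial-like cells thinned to 1500 UMIs. In neutrophil-like cells 0 rather than 5 were called within c1, c3, c4, c6 or c20 alone and 3 within c7, each with fewer cells and genes tested. Without a filter on low counts 2 were called in monocyte/macrophage-, 3 in dendritic-, 3 in T/NK- and 1 in erythroid-like cells, DESeq2 called 1 in dendritic- and 3 in T/NK-like cells, and with doublet-scored barcodes kept 1 was called in dendritic- and 1 in B-like cells. Without the library block the interaction calls went from 6 to 3 and 6 to 1 for epithelial- against neutrophil- and monocyte/macrophage-like cells, from 4 to 2 against T/NK-like cells, and from 4 to 1 for neutrophil- against monocyte/macrophage-like cells. The mean S100a11 level in AOM PN neutrophil-like cells was 42.2 with doublets kept, against 47.0. Not thinned, the share of epithelial-like cells with a UMI turned to -12.8 percentage points for S100a8, -11.9 for S100a9 and -19.4 for S100a10. The cause of these shifts was not tested. For the shares, Apc ICI epithelial-like cells were deeper and thinning also left out the shallower cells, and these were not separated.

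Leaving out each library in turn, the members called were 4 to 4 in epithelial-, 2 to 7 in neutrophil- (2 without Apc ICI 2, 7 without Apc ICI 3), 0 to 1 in monocyte/macrophage-, 0 to 2 in T/NK- and 0 to 1 in erythroid-like cells, and 0 to 0 in dendritic- and B-like cells. The interaction calls were 2 to 6, 2 to 5, 2 to 6 and 0 to 4 in the order above (lowest without AOM PN 2, AOM PN 2, Apc ICI 2, and both Apc ICI 1 and Apc ICI 2). The share differences ran from 8.43 to 12.8 for S100a8, 7.75 to 13.7 for S100a9, 3.67 to 12.4 for S100a10 and -1.51 to -0.657 for S100a4 in epithelial-like cells, and from 5.55 to 9.19 for S100a6, 12.2 to 16.2 for S100a11, 1.83 to 3.26 for S100a13 and -1.16 to -0.884 for S100a14 in neutrophil-like cells.

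With the replicate number of the labels as a block, 3 members rather than 5 were called in neutrophil-like cells, but the numbers do not pair the samples: same-numbered deviations correlated at -0.164 to -0.00834 in epithelial- and -0.253 to 0.099 in neutrophil-like cells. The reversals were of changes not called, save S100a13 and S100a11 in neutrophil-like clusters. In epithelial-like cells S100a1 was at -0.0022 without neutrophil-marker cells and ran from -0.022 (without AOM PN 1) to 0.47 over the libraries left out, S100a13 at 0.067 with doublets kept, S100a16 at -0.18 and S100a11 at -0.27 without neutrophil-marker cells, and S100a11 at -0.28 thinned. In neutrophil-like cells S100a1 was at 0.24 in c1, S100a13 at -0.050 in c4 and -1.12 in c6, S100a4 at 0.37 with doublets kept, S100a11 at -0.17 in c4, and S100a10 at -0.41 by library totals, -0.11 thinned, -0.064, -0.075 and -0.11 without Apc ICI 1, Apc ICI 3 and AOM PN 1 (up to 0.42 without Apc ICI 2), and -0.047, -0.89 and -0.51 in c3, c4 and c7.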

Other observations

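Mast-like cells, which Apc ICI libraries held in numbers of 14, 21 and 15 and AOM PN libraries in numbers of 1167, 209 and 2391, were too few in Apc ICI to compare. In AOM PN S100a13 was at 1.95, 2.06 and 2.29 UMIs per 10000 in these cells, S100a10 at 2.32, 3.48 and 2.68 and S100a1 at 0.514, 0.439 and 0.587. S100a6 was at 1.58, 1.66 and 0.923 and S100a4 at 0.0729, 0.274 and 0.0593. S100a8 was at 3.59, 6.01 and 1.08.

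Of the other S100 genes, S100a2, S100a5, S100a7a, S100b and S100z stood at no more than 0.0101 UMIs per 10000 in epithelial-like cells of any library.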
